A study of Mus musculus with 12 samples.

Results

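A set of 10 genes of poorly known function that are high in migratory type 1 conventional dendritic cells (cDC1) was described across 4 groups of mouse cDC1. The genes are Insl6, Tmem150c, Slco5a1, Tmem123, Apol7c, Serpinb6b, Nudt17, Samsn1, Elobl and Cacnb3. They were picked from these same arrays as large rises in lymph node over spleen, or as known markers of the mature dendritic cell state. The lymph node over spleen values of these genes are therefore a description and were given no test. Of the 10 genes, 9 had a probe set with a single gene symbol, out of 19938 genes measured in all. Cacnb3, a regulatory beta subunit of voltage-gated calcium channels, has no named probe set in the annotation used here and was not analysed.

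RNA of sorted cDC1 was hybridised to 12 Affymetrix Mouse Gene ST arrays, 3 for each of 4 groups. All mice were unimmunised, were on the C57BL/6 background and carried CD40fl/fl, that is a loxP-flanked Cd40 gene on both alleles. Control mice were Xcr1+/+, and Cre mice were Xcr1Cre/+, in which Cre recombinase made by XCR1-positive cells, the cDC1, is meant to delete Cd40. Cells came from spleen (the gate took B220-, MHC class II high, CD11c high, XCR1+, Sirpa- cells) or from skin-draining lymph node (the same markers with intermediate CD11c, the migratory fraction). The CD11c gate and the tissue cannot be told apart. The ages of the mice and whether replicates are separate animals are not stated in the labels, and p-values then reflect the spread between these arrays alone, which may be technical. The series asks how expression in steady-state cDC1 depends on CD40, a receptor by which CD4 T cells activate dendritic cells.

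Dendritic cells of the skin take up antigen, mature and travel through lymphatic vessels to the draining lymph node, guided by the receptor CCR7. In this homeostatic form of maturation they switch on a shared programme of chemokines, costimulatory and inhibitory ligands and cytoskeletal genes, while genes for antigen capture are switched off. Many genes of that programme have no settled role in dendritic cells.

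The arrays had median intensities of 66.1 to 74.4 over all probe sets, and 89.3% to 93.4% of genes lay above background on each array. Background was taken as the highest mean among the 3 measured Y-linked genes, an intensity of 19.5. All 14 measured genes of the cDC1 marker list were above background on every array, with summed intensities of 39133 to 50829 and 37503 to 50627 in spleen (control and Cre) and 18313 to 22274 and 17979 to 20798 in lymph node. Xcr1, which defines the type, was 2827, 3508 and 3417 on the spleen control arrays and 203, 286 and 263 on the lymph node control arrays, although the cells of both tissues were sorted as XCR1+. Cd40 was 572, 525 and 309 on spleen control arrays and 365, 214 and 569 on spleen Cre arrays (replicates 1, 2 and 3). Lymph node arrays gave 2138, 2777 and 1542 under the control label and 1427, 1388 and 3358 under the Cre label. On the arrays numbered 3 it was thus higher under the Cre label in both tissues, and "Cre" and "control" are used below as labels of arrays. Where the Cd40 probes lie relative to the deleted part is not known here.

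Some marker lists of other cell types also differed between tissues. The 11 macrophage and monocyte genes summed to 3732 to 4976 and 4038 to 5408 in spleen and to 826 to 844 and 799.7 to 911 in lymph node (control and Cre), and the 9 B cell genes to 781 to 1412 and 1014 to 1229.6 against 348 to 449.5 and 384 to 499. The 9 T cell genes summed to 985 to 1026 and 913 to 1086 in spleen and 1159 to 1771 and 998 to 1893 in lymph node, with 8 of the 9 above background on every array. For 10 Langerhans cell and keratinocyte genes the sums were 607 to 906 and 664 to 883 in spleen and 584 to 633 and 578 to 700.1 in lymph node. The 8 NK cell genes summed to 756 to 955 and 968 to 1021 in spleen and 457 to 466 and 400.5 to 576 in lymph node, and the 7 genes of plasmacytoid dendritic cells to 2257 to 2992 and 2443 to 3120.3 and to 3084 to 3721 and 2815 to 3770.5. Sums of plasmacytoid genes were higher on all lymph node control than on all spleen control arrays and overlapped on Cre arrays. The macrophage, B cell and NK cell sums were higher on all spleen arrays. T cell sums were likewise higher on all lymph node control than on all spleen control arrays and overlapped on Cre arrays. The Langerhans cell and keratinocyte sums overlapped between tissues under both labels, and no marker was at 0. A few bright genes carried these sums. On spleen control arrays Cd14, Cd68 and Lyz2 had geometric means of 1264, 1276 and 1046. Ccr2 was 124, Csf1r 93.4, and Adgre1, Mertk, Fcgr1, C1qa, C1qb and C1qc were 32.5 to 63.3. C1qa, C1qb and C1qc were 69.3, 53.4 and 54.2 on lymph node control arrays. On spleen control arrays Fcrla (518) led the B cell list, Klrk1 (523) the NK cell list and Bst2 (1630) the plasmacytoid list. The part of other cell types in the values below was not tested. In bulk RNA, fewer cells that express a gene and less RNA per cell cannot be told apart.

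Promoters are shown for 5 of the genes, because they differ in kind while all 5 genes were high on the same lymph node arrays. RefSeq windows of 250 bases before the transcription start (build GRCm38.p6) were matched by symbol for 8 of the 10 genes, 12 windows in all. Insl6 and Slco5a1 were not matched. The windows were searched on both strands for 7 motifs: the NF-kB consensus, the interferon-stimulated response element (ISRE, 2 copies of GAAA parted by any 2 bases), AP-1 (TGANTCA), the ETS site of PU.1 type (AGGAAGT), the TATA type (TATANAA), the GC box (GGGCGG) and the E-box (CACGTG). Capitals below mark the matches, and each sequence runs from 5′ to 3′ towards the gene's start. The first is the minus strand of chr15:77533316-77533565, with ISRE matches that begin 55 and 49 bases before the start and share bases with each other, and a TATA match 30 bases before it. The second is the minus strand of chr16:75909267-75909516, with ETS matches 49 and 30 bases before the start. The third is the minus strand of chr3:96708561-96708810, with an ETS match 163 bases before the start. The fourth is the plus strand of chr9:7763827-7764076, upstream of the more distal of 2 starts, with GC boxes 76 and 20 bases before it. The last is the minus strand of chr11:88966932-88967181, in which none of the 7 motifs was found.
Apol7c: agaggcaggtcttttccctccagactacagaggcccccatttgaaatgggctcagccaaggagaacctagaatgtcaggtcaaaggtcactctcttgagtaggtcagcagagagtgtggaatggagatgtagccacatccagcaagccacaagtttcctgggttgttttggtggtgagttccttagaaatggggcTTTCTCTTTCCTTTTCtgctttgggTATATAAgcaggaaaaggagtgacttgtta
Samsn1: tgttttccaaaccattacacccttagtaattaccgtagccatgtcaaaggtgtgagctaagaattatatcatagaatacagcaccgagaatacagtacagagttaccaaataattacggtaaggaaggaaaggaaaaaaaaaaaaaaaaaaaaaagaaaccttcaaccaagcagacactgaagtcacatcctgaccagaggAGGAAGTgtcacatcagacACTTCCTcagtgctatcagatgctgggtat
Nudt17: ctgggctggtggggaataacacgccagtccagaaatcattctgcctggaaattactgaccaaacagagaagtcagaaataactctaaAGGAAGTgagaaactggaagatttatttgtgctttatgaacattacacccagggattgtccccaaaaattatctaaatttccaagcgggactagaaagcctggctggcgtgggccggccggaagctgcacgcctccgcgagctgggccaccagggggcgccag
Tmem123: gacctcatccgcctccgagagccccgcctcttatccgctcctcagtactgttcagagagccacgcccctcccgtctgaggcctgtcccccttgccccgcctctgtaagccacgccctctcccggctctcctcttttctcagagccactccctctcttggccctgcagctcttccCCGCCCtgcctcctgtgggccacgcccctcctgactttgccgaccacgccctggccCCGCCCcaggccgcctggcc
Elobl: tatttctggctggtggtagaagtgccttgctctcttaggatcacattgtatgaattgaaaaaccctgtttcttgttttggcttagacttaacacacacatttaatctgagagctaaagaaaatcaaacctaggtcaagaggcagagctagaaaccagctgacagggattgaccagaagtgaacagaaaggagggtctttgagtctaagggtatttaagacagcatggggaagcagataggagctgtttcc

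The GC content of these windows was 47.6% for Apol7c, 38.4% for Samsn1, 51.2% for Nudt17, 69.2% for Tmem123 and 42.4% for Elobl, against a median of 52.4% over 32851 windows of the same length. The Apol7c and Elobl windows held 0 CpG dinucleotides and the Tmem123 window 15. Among all windows, 2.98% held the ISRE, as did 1 of the 12 windows, that of Apol7c. The ETS motif was in 7.69% of all windows and in 2 of the 12, and the TATA type in 10.4% of all windows and in 1 of the 12. GC boxes were in 32.7% of all windows and in 6 of the 12, some of which overlap. These 6 belong to 4 of the 8 genes (Tmem123, Tmem150c, Serpinb6b and Cacnb3). The NF-kB consensus, AP-1 and the E-box, held by 3.9%, 6.75% and 6.02% of all windows, were found in none of the 8, which says only that those letters are not in these windows.

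All 9 measured genes were above background on all 12 arrays. On each array 89.3% to 93.4% of genes were, so this alone does not show that a gene is expressed. On spleen control arrays Krt1, Elane and Alas2, markers of other cell types, had geometric means of 52.7, 61.4 and 47.0. The spleen values of Elobl, Insl6 and Slco5a1 given below are near these or near the array medians, so their fold values depend on that floor. For all 9 the 6 lymph node arrays lay above the 6 spleen arrays, as 12.1% of all genes did. The genes fell into a group of 5 with differences of 3.99 to 5.09 on the log2 scale on control arrays (Elobl, Insl6, Tmem150c, Slco5a1 and Nudt17) and a group of 4 with 1.5 to 1.85 (Tmem123, Apol7c, Serpinb6b and Samsn1). Among all 19938 genes ordered by rise, the first group held ranks 2 to 27 on control arrays and 8 to 22 on Cre arrays, and the second ranks 360 to 549 and 263 to 514.

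**Figure D1:**
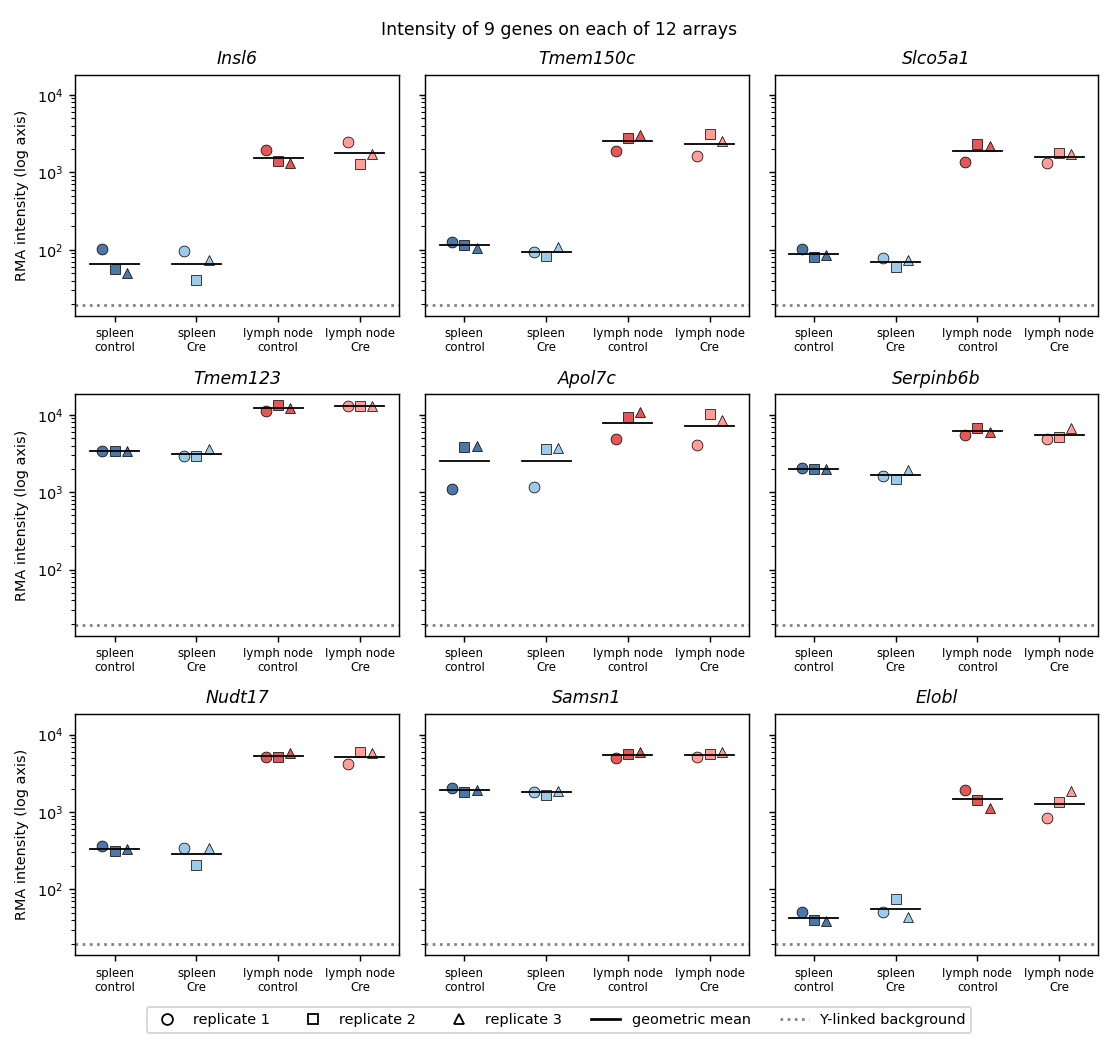
Intensity of the 9 measured genes on each of the 12 arrays, on a log axis, by tissue and genotype label; the symbol gives the replicate number, the bar the geometric mean of 3 arrays and the dotted line the Y-linked background of 19.5. The 6 lymph node arrays lie above the 6 spleen arrays for each gene, and Apol7c is lowest on the replicate 1 array of each group.

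Among secreted products, Insl6 encodes a peptide of the insulin and relaxin superfamily known mainly from testis. Its intensity (probe set 10466932, chromosome 19) was 101, 56.8 and 50.9 on the spleen control arrays and 97.4, 40.2 and 73.7 on the spleen Cre arrays, with replicates 1, 2 and 3 in this order here and in all later lists. On lymph node arrays it was 1971, 1383 and 1339.8 on control and 2496, 1263 and 1743 on Cre arrays. The tissues did not overlap, and in each of the 4 groups replicate 1 was the highest. The lymph node minus spleen difference was 4.54 on control arrays (log2, SE 0.34, n = 3 per group; 23.2-fold) and 4.74 on Cre arrays (SE 0.34; 26.7-fold).

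Of the membrane proteins, Tmem150c (tentonin) is a multi-pass protein reported in slowly adapting mechanically activated currents. It was 125, 117 and 105 on spleen control and 93.5, 83.8 and 107 on spleen Cre arrays (probe set 10531653, chromosome 5). On lymph node arrays it was 1886, 2754 and 3071 under the control label and 1624, 3159 and 2556 under the Cre label, with replicate 1 lowest in both. The differences were 4.45 on control arrays (log2, SE 0.24, n = 3 per group; 21.8-fold) and 4.64 on Cre arrays (SE 0.24; 25-fold). Within replicate numbers, the lymph node to spleen ratio was 15.1, 23.6 and 29.2 on control arrays and 17.4, 37.7 and 23.8 on Cre arrays, lowest for replicate 1 in both.

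Slco5a1, an orphan member of the organic anion transporting polypeptide family, had tissue differences of a size like those of Tmem150c. Its spleen intensities were 102, 80.5 and 85.3 (control) and 77.6, 60.5 and 74.2 (Cre) (probe set 10353117, chromosome 1). Lymph node arrays gave 1364, 2326 and 2208 (control) and 1334, 1758 and 1749 (Cre). The log2 differences were 4.43 (SE 0.21, n = 3 per group; 21.6-fold) and 4.51 (SE 0.21; 22.8-fold). In spleen all 3 Cre arrays lay below all 3 control arrays, while in lymph node the labels overlapped.

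Tmem123 (porimin), a sialomucin-like surface protein linked to oncotic cell death, varied little between arrays of a group. Spleen arrays gave 3363, 3400.4 and 3449.7 (control) and 2909.9, 2923 and 3595 (Cre), and lymph node arrays 11244, 13231 and 12378 (control) and 12862, 12881 and 13142 (Cre; probe set 10583145, chromosome 9). The SD of log2 intensity was 0.02 in spleen control and in lymph node Cre. The differences were 1.85 on control arrays (log2, SE 0.11, n = 3 per group; 3.6-fold) and 2.05 on Cre arrays (SE 0.11; 4.14-fold).

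Apol7c and Serpinb6b are intracellular proteins. Apol7c, an apolipoprotein L reported at phagosomes of cross-presenting dendritic cells, was 1110.1, 3828 and 3919 on spleen control and 1169.5, 3629 and 3738 on spleen Cre arrays (probe set 10430186, chromosome 15). In lymph node it was 4892, 9239 and 10942 on control and 4048, 10099.6 and 8639 on Cre arrays. Replicate 1 stood apart in all 4 groups, and the lowest lymph node array (replicate 1, Cre) was just above the highest spleen array (replicate 3, control). The differences of 1.63 on control arrays (log2, SE 0.54, n = 3 per group; 3.1-fold) and 1.49 on Cre arrays (SE 0.54; 2.81-fold) had the largest SE of the 9 genes in this fit, which has no term for the replicate number. With the replicate number as a block the SE was 0.14. Within replicate numbers the lymph node to spleen ratio was 4.41, 2.41 and 2.79 on control arrays and 3.46, 2.78 and 2.31 on Cre arrays.

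Serpinb6b is a clade B serpin, a family of intracellular protease inhibitors, and is known as an inhibitor of granzyme A. It gave 2063, 1972 and 1994 on spleen control arrays (SD 0.03 in log2) and 1593, 1494 and 1909.5 on spleen Cre arrays (probe set 10404422, chromosome 13). Lymph node arrays gave 5511, 6768 and 6069 (control) and 4892, 5143 and 6741 (Cre). The differences were 1.60 on control arrays (log2, SE 0.15, n = 3 per group; 3.03-fold) and 1.74 on Cre arrays (SE 0.15; 3.34-fold). Apol7c and Serpinb6b belong to clusters of related paralogs (among them Apol7a, Apol7b and Apol7e, and Serpinb6a to Serpinb6e). How far their probe sets also read a paralog was not tested.

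Among enzymes and adaptors, Nudt17 belongs to the Nudix hydrolases, which cleave nucleoside diphosphates linked to other groups; its substrate is poorly known. It was 358, 311 and 337 (control) and 339, 209 and 342 (Cre) in spleen and 5071, 5069 and 5807 (control) and 4109.7, 5895 and 5785 (Cre) in lymph node (probe set 10500378, chromosome 3). The differences were 3.99 on control arrays (log2, SE 0.20, n = 3 per group; 15.8-fold) and 4.17 on Cre arrays (SE 0.20; 17.9-fold). Spleen Cre replicate 2 was the low array, and the ratio within that number was the highest of the gene, 28.2.

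Samsn1 (SLy2, HACS1) is an adaptor with an SH3 and a SAM domain that restrains B cell activation. Its intensities were 2061, 1830.1 and 1923 (control) and 1818, 1662 and 1886 (Cre) in spleen and 4954, 5547 and 6019 (control) and 5066, 5605 and 5874 (Cre) in lymph node (probe set 10440393, chromosome 16). It had the smallest differences of the 9 genes on control arrays, 1.5 (log2, SE 0.12, n = 3 per group; 2.84-fold), and 1.62 on Cre arrays (SE 0.12; 3.08-fold), with no group's SD above 0.14 in log2.

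Elobl resembles elongin B, the ubiquitin-like adaptor that joins elongin C to substrate receptors of cullin ubiquitin ligases. It was 50.6, 40.0 and 38.9 on spleen control and 51.0, 74.5 and 44.2 on spleen Cre arrays (probe set 10389732, chromosome 11). These lie above the Y-linked background of 19.5, as most genes do. In lymph node it was 1946, 1429.5 and 1123 on control and 826, 1344 and 1838 on Cre arrays, with replicate 1 highest under 1 label and lowest under the other. Its difference on control arrays, 5.09 (log2, SE 0.28, n = 3 per group; 34.1-fold), ranked 2 of 19938. On Cre arrays it was 4.52 (SE 0.28; 23-fold), at rank 13.

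**Figure D2:**
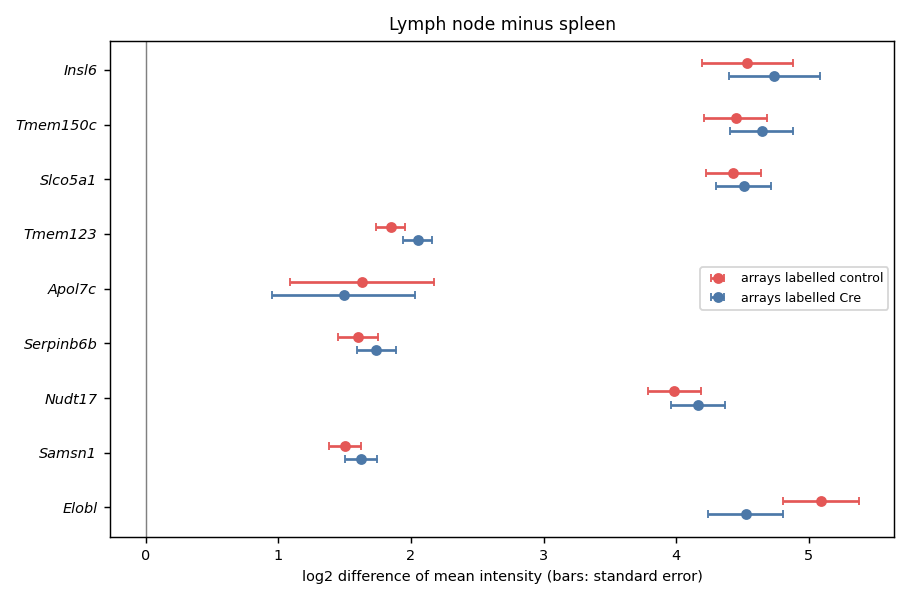
Difference in mean log2 intensity between lymph node and spleen for each gene, on control arrays and on Cre arrays, with SE bars from the limma fit (n = 3 arrays per group). The 5 genes with differences of 3.99 or more are apart from the 4 with differences of 2.05 or less, and Apol7c has the widest bars in this fit, which has no replicate block.

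The genotype labels were not used to pick the genes, so these comparisons were tested. No gene of the 9 was called between arrays labelled Cre and control in spleen or in lymph node, or for a difference of that effect between tissues (limma adjusted p = 1 for each gene in each comparison, n = 3 per group). The background rate of calls over all 19938 genes was 0% in spleen, 0% in lymph node and 0% for the difference between tissues, with 357, 402 and 326 genes at an unadjusted limma p under 0.05. In spleen 8 of the 9 estimates were below 0, from -0.01 for Insl6 to -0.33 for Slco5a1, and Elobl was at 0.36; with quantile normalization Insl6 was at 0.03. In lymph node 6 of the 9 were below 0, and with quantile normalization Nudt17 moved from -0.03 to 0.01. The medians over all genes were -0.01 in both tissues.

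Slco5a1 and Serpinb6b were the 2 genes of 9 whose spleen Cre arrays all lay below the spleen control arrays, which 4.96% of all genes did. For Slco5a1 the Cre to control ratio of replicates 1, 2 and 3 was 0.763, 0.752 and 0.869 for spleen and 0.978, 0.756 and 0.792 for lymph node, under 1 in all 6 pairs as labelled. Its log2 difference was -0.33 in spleen (95% confidence interval -0.78 to 0.11; limma adjusted p = 1) and -0.26 in lymph node (-0.71 to 0.19). For Serpinb6b the ratio was 0.772, 0.758 and 0.958 for spleen and 0.888, 0.76 and 1.11 for lymph node. Its difference in spleen was -0.28 (95% confidence interval -0.60 to 0.04; limma adjusted p = 1). With the replicate number as a block this interval was -0.50 to -0.05, which leaves out 0, and the gene was not called (limma adjusted p = 0.983). In the pairs numbered 3, Cd40 went against the label, with Cre to control ratios of 1.84 in spleen and 2.18 in lymph node. If those labels were exchanged, the replicate 3 ratios of Slco5a1 would lie above 1 in both tissues, and the spleen arrays of both genes would overlap. Whether they are exchanged was not tested. No gene of the 9 had its lymph node Cre arrays all above or all below the control arrays.

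The interval of the genotype difference varied widely between the genes. Samsn1 in lymph node was at 0.00 (95% confidence interval -0.26 to 0.27) and Tmem123 at 0.08 (-0.16 to 0.32), so that a change of 1 on the log2 scale lay outside both intervals. For Insl6 the interval was -0.54 to 0.93 in lymph node and -0.74 to 0.73 in spleen. For Apol7c it was -1.33 to 1 and -1.19 to 1.14 in this fit, and -0.46 to 0.14 and -0.32 to 0.27 with the replicate number as a block, which leaves a change of 1 outside. Elobl had the largest difference of the effect between tissues, -0.57 (95% confidence interval -1.44 to 0.30; limma adjusted p = 1). Its lymph node Cre to control ratio was 0.424, 0.94 and 1.64 for replicates 1, 2 and 3, and its spleen ratio 1.01, 1.86 and 1.13.

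**Figure D3:**
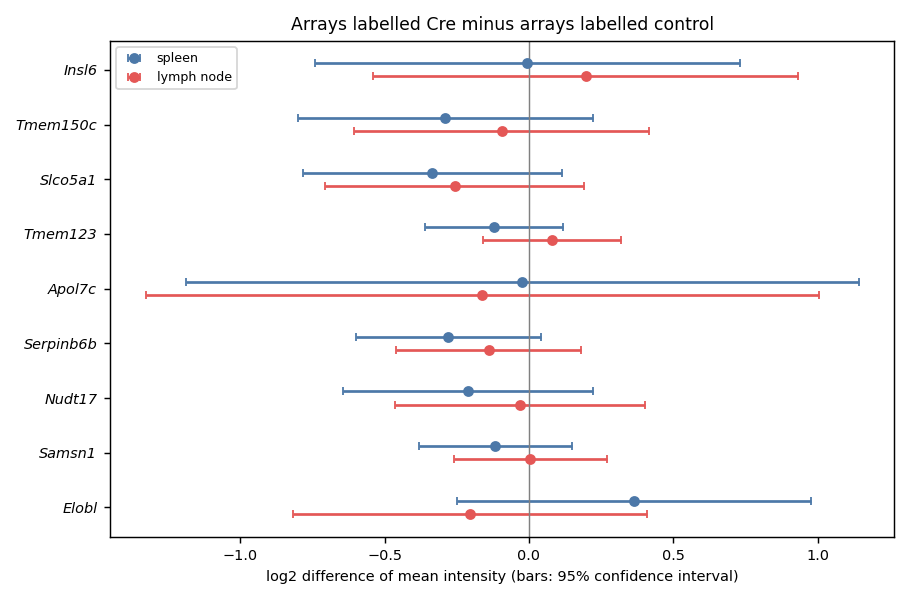
Difference in mean log2 intensity between arrays labelled Cre and control in spleen and in lymph node, with 95% confidence intervals from the limma fit (n = 3 arrays per group). The interval of each gene includes 0 in both tissues, and Apol7c has the widest intervals in this fit, which has no replicate block.

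The genes differed in how far they varied with the replicate number. Apol7c was lower on replicate 1 arrays than on the others of the same group by 1.43 on the log2 scale, averaged over the 4 groups, and its replicate 1 array was the lowest of its group in all 4. Tmem123 was also lowest on replicate 1 in all 4 groups, but by 0.10 on average. The 2 genes of 9 compare with 14.2% of all genes that were lowest on replicate 1 in all 4 groups. Insl6 was the highest on replicate 1 in all 4 groups, by 0.76 on average, as 19.1% of all genes were. For the other 6 genes the average shift of replicate 1 lay between -0.32 (Tmem150c) and -0.03 (Elobl and Nudt17), against a median of 0.08 over all genes. What the replicate number stands for is not stated in the labels, and its part in these values was not tested.

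**Figure D4:**
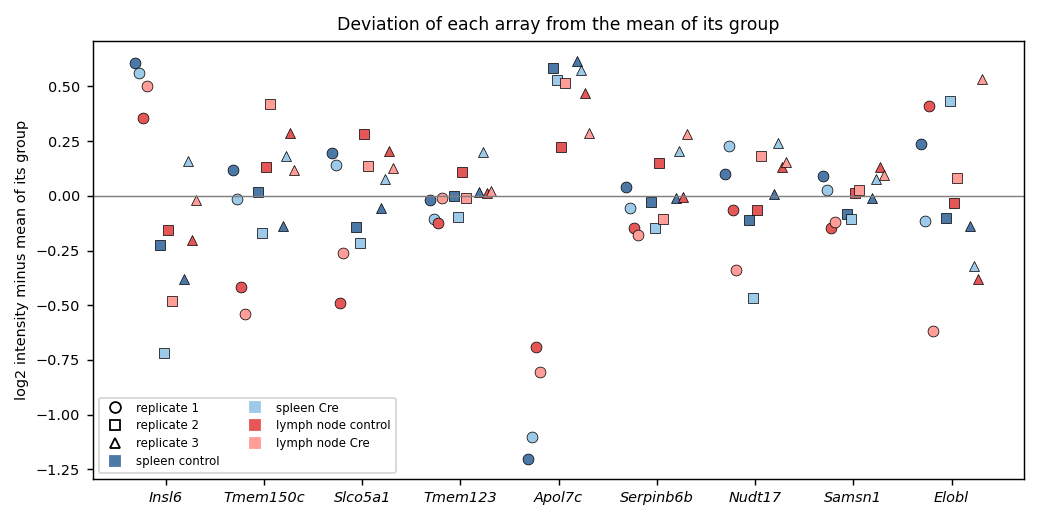
Deviation of each array from the mean log2 intensity of its group, for the 9 genes; the symbol gives the replicate number and the colour the group. Replicate 1 arrays of Apol7c lie at -0.69 to -1.20 in all 4 groups and those of Insl6 at 0.36 to 0.61.

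Likeness of the genes' profiles was measured as the root mean square of the difference between 2 log2 profiles, each centred on its own mean, over the 12 arrays. All such values carry the tissue difference. Tmem150c and Slco5a1 were 0.17 apart, and among 18180 candidate genes each was the other's nearest. Serpinb6b, Tmem123 and Samsn1 were 0.14 to 0.21 apart, while Apol7c was 0.67 to 0.69 from these 3. Elobl and Insl6 were at least 0.50 from each of the other genes. Outside the 10 genes, the nearest to Nudt17 were Socs2, a suppressor of cytokine signalling, and Il15ra, the receptor chain that presents IL-15, both at 0.15. The nearest to Elobl was Mfge8, a bridging protein for apoptotic cells (0.36), and to Insl6 S100a4, a calcium-binding protein (0.34). For Apol7c it was Strip2 (0.28), for Serpinb6b Inpp5j (0.11) and then Cd200, an inhibitory ligand (0.12). Tmem123 was nearest to Rras2, a small GTPase (0.13), and Samsn1 to Pde6d, a carrier of prenylated proteins (0.07).

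The mature migratory dendritic cell state was described by 34 measured genes, a list drawn up with results of these arrays known and so no independent evidence of its direction. Of these, 28 were called higher in lymph node on control arrays and 29 on Cre arrays, where 12.9% and 13.1% of all genes were called higher. Called lower were 3 genes in both comparisons, Cd80, Cd86 and Ramp3, where 13.2% and 15.2% of all genes were. The median difference of the list was 2.03 and 2.06 (log2), against 0.03 and 0.07 over all genes. Under all alternatives 24 of the list kept their higher calls in both comparisons, and Cd80 and Cd86 their lower calls. Ramp3 lost its call on Cre arrays with quantile normalization, without spleen Cre replicate 1 or 3, without lymph node Cre replicate 2 and without number 2 or number 3. Fscn1, the actin bundler of mature dendritic cells, was 498, 679 and 539 on spleen control and 8945, 14148 and 14213 on lymph node control arrays, a difference of 4.42 (SE 0.29, n = 3 per group; limma adjusted p = 7.83e-08). Clu, a secreted chaperone, rose by 5.24 on control arrays (limma adjusted p = 3.34e-09). Ccr7 itself rose by 1.22 on control arrays (SE 0.15; limma adjusted p = 3.14e-05), from 3483, 3629.9 and 3668 to 7339, 9556 and 8445, beside which the differences of Samsn1, Serpinb6b, Apol7c and Tmem123 lay between 1.5 and 1.85. No gene of this list was called for genotype, and its median genotype difference was -0.22 in spleen and -0.05 in lymph node.

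Relatives of the 9 genes were counted by family, beside all genes, of which 12.9% and 13.1% were called higher and 13.2% and 15.2% lower (control and Cre arrays). A family's share near these is no result about the family, and in small families 1 gene moves the share widely. In the relaxin and insulin family with its receptors (13 measured besides Insl6), 2 were called higher in both comparisons: Insr, the insulin receptor, by 2 and 1.73 (log2, control and Cre arrays; limma adjusted p = 7.32e-05 and 0.000247), and Igf1r by 1.05 and 0.87. Called lower was 1 on control arrays, Insl5 at -0.40, and 0 on Cre arrays. The share called higher, 15.4%, was near that of all genes. Rln1, the relaxin gene beside Insl6, was at -0.15 (limma adjusted p = 0.414) on control arrays. Insr was called in both comparisons under each of 21 alternatives. Igf1r on Cre arrays was not called without the arrays numbered 2 or without those numbered 3. Insl5 was not called without any 1 of spleen control replicates 1 and 3, the 3 lymph node control arrays and lymph node Cre replicate 3, nor without any 1 number.

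Among TMEM150 proteins and mechanically activated channels (12 measured), Tmem150b, a relative of Tmem150c, fell by 1 on control arrays and by 1.88 on Cre arrays (log2; limma adjusted p = 0.00188 and 8.26e-06). It was 208, 273 and 218 on spleen control and 152, 119 and 84.7 on lymph node control arrays. Trpv2, a cation channel, fell by 0.78 and 0.98, and Tmc6 by 0.48 and 0.55. The 3 lower calls were 25% of the family in both comparisons, beside 13.2% and 15.2% of all genes. Called higher was Tmem63b, an osmosensitive channel, by 0.95 and 1.06, and on control arrays also Tmem63a by 0.80. Of these, Tmem150b kept its call under all alternatives. Tmem63a lost its call under eBayes without trend, and Tmc6 its call in both comparisons with quantile normalization. The 2 higher calls on control arrays became 1 without any 1 of spleen control replicates 1 and 2, spleen Cre replicate 3, lymph node control replicates 2 and 3 and lymph node Cre replicate 3, and 0 without number 2 or number 3. The 3 lower calls became 1 without spleen control replicate 3, number 2 or number 3 on control arrays and without number 3 on Cre arrays. The 1 higher call on Cre arrays became 2 without spleen control, lymph node control or lymph node Cre replicate 1 or without number 1, and 0 without number 2.

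Of 14 other organic anion transporters, Slco3a1, a transporter of prostaglandins and thyroid hormone, was the only one called in both comparisons. It fell by 4.37 on control arrays and 4.34 on Cre arrays (log2, SE 0.19, n = 3 per group; limma adjusted p = 2.5e-09 and 2.58e-09), from 2042, 2553 and 2377 to 142, 101 and 97.9 on control arrays. In both directions the family's share was below that of all genes, at 7.14% or 0%. Slco1a6 was called higher on Cre arrays alone, by 0.28, a call that was lost without number 2 or number 3; without spleen Cre replicate 1 the higher calls were 2.

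Among 12 sialomucins measured besides Tmem123, 2 were called higher on control arrays (Muc1, a membrane mucin, by 0.95, and Selplg, the P-selectin ligand, by 0.64) and 2 on Cre arrays (Muc1 by 1.16 and Muc20 by 0.42). Called lower in both were Cd24a, by 0.75 and 0.73, and Cd34, by 0.33 and 0.45. Each of these counts is 16.7% of the family, near the 12.9% to 15.2% of all genes. Muc1 kept its call under all alternatives (limma adjusted p = 0.00279 and 0.000631). The higher calls became 1 on control arrays without any 1 of spleen control replicates 1 and 2 and lymph node control replicates 2 and 3, on Cre arrays without spleen Cre replicate 3, and in both without number 2 or number 3. The lower calls became 1 on control arrays without any 1 of spleen control replicates 1 and 3 and lymph node control replicates 2 and 3, 1 in both without number 2 and 0 in both without number 3. With the replicate number as a block they were 4 on control arrays.

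In the apolipoprotein L family (7 of 13 listed genes measured besides Apol7c), Apol10b rose and Apol8 fell, 1 gene each way and a share of 14.3%, near that of all genes. Apol10b was 43.3, 49.6 and 49.6 on spleen control and 170.0, 260.2 and 309.9 on lymph node control arrays, a rise of 2.34 (log2, SE 0.19, n = 3 per group; limma adjusted p = 5.12e-07), and of 2.41 on Cre arrays (limma adjusted p = 3.54e-07). Apol8 fell by 1.04 on control and 0.75 on Cre arrays (limma adjusted p = 0.000205 and 0.00261). Apol7a was at 0.06 on control arrays (limma adjusted p = 0.752). Without the arrays numbered 3 the Apol8 call on Cre arrays was lost, and without lymph node Cre replicate 2 the higher calls on Cre arrays were 2.

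The clade B serpins and granzymes A, B and C were counted together (23 measured besides Serpinb6b). This list was called higher and lower in shares near those of all genes. In all, 3 and 4 of the 23 were called higher (13% and 17.4%, beside 12.9% and 13.1% of all genes) and 3 and 3 lower (13%, beside 13.2% and 15.2%). Serpinb1a, an inhibitor of neutrophil elastase, rose by 3.85 and 4.15 (log2, control and Cre arrays; limma adjusted p = 1.02e-06 and 4.95e-07). Serpinb6a, the paralog of Serpinb6b, rose by 1.55 and 1.32, and Serpinb9, the inhibitor of granzyme B, by 1.27 and 1.42. Serpinb8, which can inhibit furin, fell by 4.42 and 4.63 (limma adjusted p = 1.21e-10 and 1.12e-10), from 743, 818 and 745 to 34.4, 37.1 and 36.2 on control arrays. Serpinb2, an inhibitor of plasminogen activators, fell by 3.47 and 3.53, and Serpinb10 by 2.67 and 3.29. These 6 genes kept their calls under all alternatives. The higher calls on control arrays became 5 without spleen control replicate 1 and 6 with the replicate number as a block (7 on Cre arrays).

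Of 20 other Nudix hydrolases, 3 were called higher in both comparisons (Nudt13 by 0.96 and 0.91, Nudt1 by 0.65 and 0.76 and Nudt12 by 0.58 and 0.49) and 4 and 6 lower. The share called higher, 15%, was near that of all genes, and the share called lower was 20% and 30%, beside 13.2% and 15.2%. Nudt1 cleaves oxidised nucleotides. Among the lower was Nudt21, a subunit of the pre-mRNA cleavage factor, by 0.54 and 0.80. None approached the difference of Nudt17, and Nudt13 was the only one that kept its call under all alternatives (limma adjusted p = 0.000131 and 0.000207). The higher calls became 1 without spleen control replicate 3, number 2 or number 3 on control arrays and without spleen Cre replicate 3 or number 3 on Cre arrays, and 5 with the block on control arrays. The lower calls became 0 in both comparisons without number 2, and 0 and 3 without number 3. With quantile normalization Nudt21 on control arrays and Nudt12 on Cre arrays lost their calls.

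A mixed list of the SLY family and other signalling genes (14 measured besides Samsn1) gave 5 lower and 3 higher calls on control arrays and 7 and 3 on Cre arrays. Blnk, Sh2b3, Lyn, Samhd1 and Samd9l are on it, so not all of its genes are adaptors with SAM or SH3 domains. The shares are those of this list and not of a protein family. Called lower were thus 35.7% and 50% of the list, beside 13.2% and 15.2% of all genes, and called higher 21.4%, beside 12.9% and 13.1%. Hcls1, a cortactin-like actin regulator, fell by 2.82 and 3.15 (log2; limma adjusted p = 2.99e-06 and 9.97e-07). Lcp2 (SLP-76) fell by 2.09 and 1.99, Sash1 by 1.47 and 1.51 and Arap1 by 1.33 and 1.46. Blnk, the B cell linker, rose by 2.69 and 2.58 (limma adjusted p = 4.75e-07 and 6.99e-07). On control arrays it went from 36.8, 43.3 and 33.4 to 244, 310.2 and 190.4. The part of other cell types in this rise was not tested. These 5 genes kept their calls under all alternatives. The lower calls on control arrays were 8 with the replicate number as a block, without spleen control replicate 1 or without number 1, and the higher calls fell to 1 without number 3 in both comparisons and without number 2 on control arrays.

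For partners of elongin B (16 measured), Socs2 rose by 4.08 and 4.37 (log2, control and Cre arrays; limma adjusted p = 8.97e-10 and 5.86e-10) and Vhl, the receptor subunit that targets hypoxia-inducible factors, by 1.87 and 1.78 (limma adjusted p = 1.55e-07 and 2.27e-07). Socs1, a brake on interferon signalling, was the third higher call, at 0.80 and 0.61. Asb2, a SOCS-box protein that targets filamins, fell by 3.15 and 3.24 (limma adjusted p = 3.1e-07 and 2.3e-07). Socs3 was called lower on control arrays alone, by 0.50, and lost that call with the mean of probe sets. The share called higher was 18.8% in both comparisons, beside 12.9% and 13.1% of all genes, and the share called lower 12.5% and 6.25%, beside 13.2% and 15.2%. Socs2, Vhl and Asb2 kept their calls under all alternatives. The higher calls on control arrays were 5 with the block or without number 1. The lower calls became 5 and 4 with the block, 1 on control arrays without spleen control replicate 2, lymph node control replicate 3, number 2 or number 3, and on Cre arrays 2 without spleen Cre replicate 1, 3 without lymph node Cre replicate 1 and 5 without number 1.

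Although Cacnb3 was not analysed, other calcium channel subunits and genes of store-operated entry were (25 measured). Cacnb1, also a beta subunit, rose by 2.43 and 2.66 (log2; limma adjusted p = 4.15e-06 and 1.77e-06), from 133, 163 and 170.5 on spleen control to 644, 769.5 and 1177 on lymph node control arrays. Cacnb4 rose by 1.08 in both comparisons, and Cacna1b, a pore subunit, by 1.27 and 1.59. Cacna1e, also a pore subunit, fell by 3.96 and 3.90 (limma adjusted p = 2.77e-08 and 3.18e-08), from 673, 991 and 1073 to 70.9, 48.7 and 55.3 on control arrays. These 4 kept their calls under all alternatives. In all, 4 were called higher and 3 lower in both comparisons, shares of 16% and 12% that are near those of all genes (12.9% to 15.2%). The lower calls on control arrays became 1 without number 3.

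The genes next to the 9 along their chromosomes were examined last, 3 measured genes on each side and 54 in all, in the gene order of RefSeq. Of these, 16 were called higher and 7 lower on control arrays, and 17 and 7 on Cre arrays, with medians of 0.12 and 0.19 (log2). The share called higher was thus 29.6% and 31.5%, beside 12.9% and 13.1% of all genes, while the share called lower, 13% in both, was near the 13.2% and 15.2% of all genes. The higher calls are not independent of each other or of the lists above. Among them Apol10b, Serpinb1a, Serpinb9, Birc3 and Cd274 were also counted on those lists, as was Serpinb1b, called on Cre arrays alone. A further 4 lie at the Nudt17 locus. Without the arrays numbered 3 the lower calls were 4 in both. Around Nudt17 4 neighbours rose together: Pias3, a SUMO ligase whose span overlaps that of Nudt17, by 2.90 and 2.81, Rnf115, a ubiquitin ligase, by 2.45 and 2.49, Polr3c, a subunit of RNA polymerase III, by 2.25 and 2.12, and Ankrd35 by 2.38 and 2.40 (limma adjusted p from 4.24e-09 to 3.78e-05). The next genes outward, Itga10 and Cd160, were at 0.09 and 0.07 on control arrays and were not called. Beside Tmem123, the inhibitor of apoptosis genes Birc2 and Birc3 rose by 3.12 and 1.44 on control arrays (limma adjusted p = 2.11e-07 and 1.63e-05), and Mmp7, a matrix metalloproteinase, by 2.47 (limma adjusted p = 2.67e-05).

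At other loci some neighbours were called lower, some higher and some not at all. Beside Tmem150c, Sec31a, a coat protein of the secretory pathway, fell by 1.11, Lin54 fell by 1.49 and Cops4 fell by 1.20 on control arrays (limma adjusted p = 0.0062, 3.81e-05 and 0.000108). Beside Elobl, Scpep1, a carboxypeptidase, and 2210409E12Rik rose by 2.22 and 2.44, while Trim25, a ubiquitin ligase of antiviral signalling, fell by 1.59 (limma adjusted p = 0.000833). The 2 genes adjacent to Slco5a1, Sulf1 and Prdm14, were at 0.02 and 0.06 on control arrays (limma adjusted p = 0.921 and 0.837). Beyond Prdm14, Ncoa2 rose by 0.90 and Tram1 fell by 0.69 on control arrays (limma adjusted p = 0.00325 and 0.00452). On Cre arrays they were at 0.89 and -0.91 and were called too. Beside Insl6, Jak2 was at 0.17 (limma adjusted p = 0.670), and Cd274, which encodes PD-L1, rose by 0.95 (limma adjusted p = 0.00192). Of the neighbours named as changed, Sec31a lost its call in both comparisons without the arrays numbered 3. Cd274 lost its call on control arrays without those numbered 2. Without number 2 or number 3, Ncoa2 lost its call in both comparisons and Tram1 on control arrays. Serpinb1b lost its call on Cre arrays without spleen Cre replicate 2 or 3, lymph node Cre replicate 1 or 3, number 2 or number 3. The other neighbours named as changed here and in the paragraph before kept their calls under all alternatives.

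**Figure D5:**
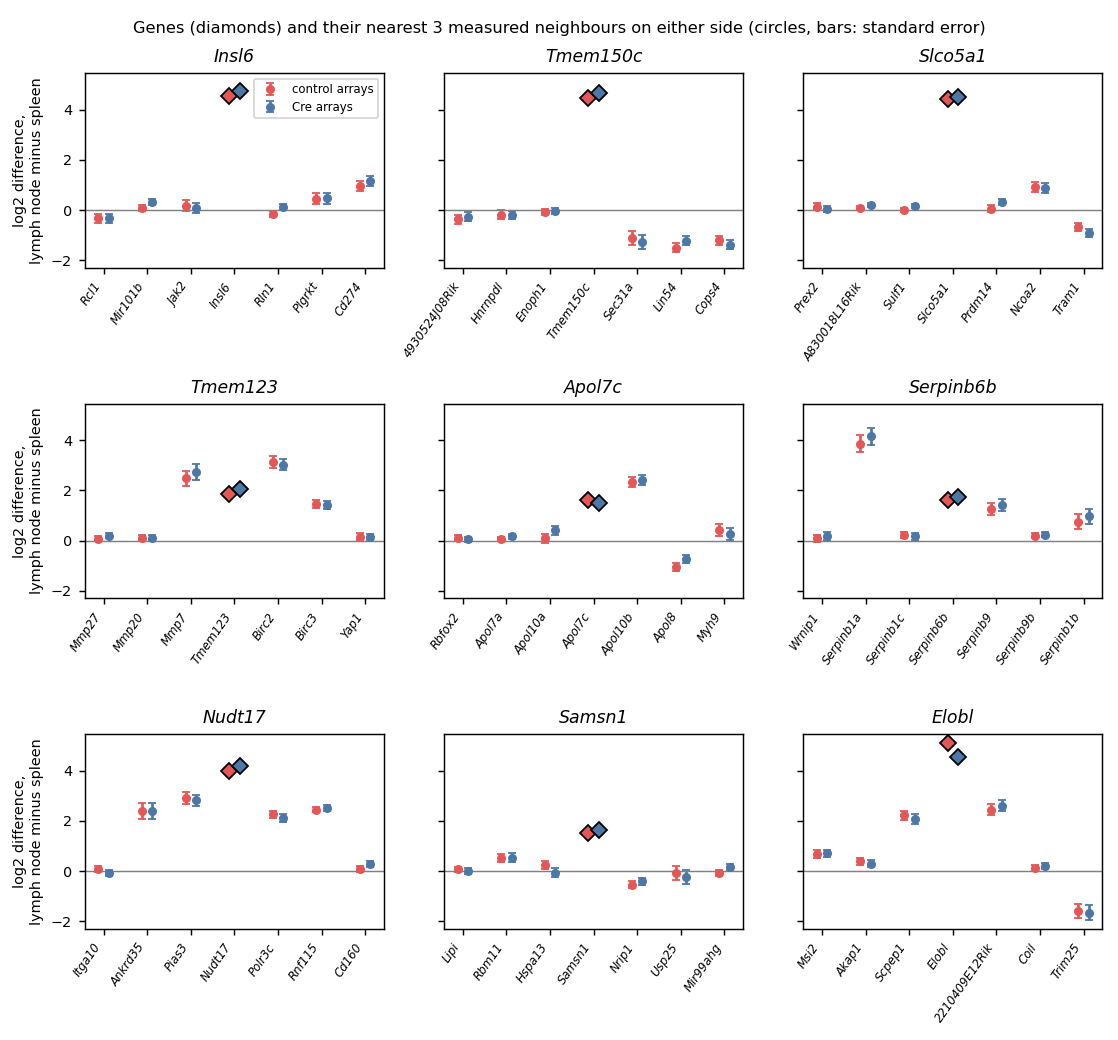
Difference in log2 intensity between lymph node and spleen for each of the 9 genes (diamonds) and the 3 nearest measured genes on either side (circles, with SE bars), on control and on Cre arrays. Around Nudt17 4 neighbours lie between 2.12 and 2.90, while the genes adjacent to Slco5a1 lie near 0.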

How the data were processed

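RNA of sorted cDC1 was measured on 12 Affymetrix arrays (3 in each of 4 groups, from the sample titles). The deposited values are linear intensities per probe set and array, which the authors computed by RMA (Affymetrix Expression Console; tool names per the submitters' processing notes, versions not given in the sources used here). They ran from 8.23 to 20398, and log2 was taken here. Of 28853 probe sets, 23410 were listed in the platform annotation and 21789 carried a single symbol (21698 matched to RefSeq by Entrez number); for 999 genes with several, the brightest was kept, leaving 19938 genes. Normalization by RMA compresses differences near background. Precision is limited by the small number of arrays.

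The 4 group means were estimated with limma 3.58.1 in R 4.3.3 (files read with data.table, version 1.17.8), using eBayes with an intensity trend and two-sided tests, adjusted by Benjamini-Hochberg within each comparison over all genes and called at an adjusted p under 0.05. The fit was also run on simulated data with independent noise for each gene and array and no effect of the replicate number. That run cannot show how the fit behaves when arrays of the same number deviate together. Comparisons were Cre minus control labels in each tissue, their difference between tissues, and lymph node against spleen under each label. The members and gene lists were chosen with earlier results of these data known. Named were all members, Cd40 and Xcr1, the gene nearest each measured member, and a selection of the relatives and neighbours. Some relatives and neighbours that were called, and some adjacent to a member, are not named. Deviations from group means correlated between arrays of the same number at 0.573 to 0.729 (number 1), 0.309 to 0.449 (2) and 0.293 to 0.466 (3). Between numbers they ran from -0.633 to 0.557, with a median of -0.449. Centring on groups of 3 arrays itself draws the values between numbers below 0, so this median is no independent baseline. The highest value between numbers lay above all those within numbers 2 and 3. Arrays of the same number tended to deviate together, most of all those numbered 1. The fit with the number as a block was run as an alternative. Standard errors, intervals and p-values are from the fit without it unless stated. Other alternatives were quantile normalization, a filter on dim genes, eBayes without trend, array weights, the mean of probe sets, and leaving out each array or number. Plots used matplotlib 3.10.9 in Python 3.11.15.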

Additional observations from a re-analysis of the deposited data

How the results depend on the processing

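No genotype comparison called any of the 9 genes under any alternative; their lowest adjusted p was 0.279 in spleen, 0.160 in lymph node and 0.602 for the difference between tissues. With the replicate number as a block Serpinb6b in spleen kept its difference of -0.28, with an unadjusted limma p of 0.0193 and an adjusted p of 0.983, and the block changed no call of the 9. Array weights gave 51 calls over all genes in spleen, 2 in lymph node and 3 for the difference between tissues, and 9020 and 8933 tissue calls on control and Cre arrays, against 5207 and 5648; the cause was not tested. Leaving out 1 array or 1 replicate number gave 2865 to 6906 tissue calls on control and 3081 to 7684 on Cre arrays.

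Small genotype differences changed sign. With array weights Apol7c in spleen was 0.0077, Insl6 in spleen 0.13, Elobl in lymph node 0.14, Nudt17 in lymph node 0.14, Tmem123 in lymph node -0.005 and Slco5a1 for the difference between tissues -0.17. With quantile normalization Insl6 in spleen was 0.03 and Nudt17 in lymph node 0.0087. Leaving out 1 array or number gave, in spleen, -0.62 to 0.53 for Apol7c, -0.29 to 0.35 for Insl6 and -0.33 to 0.0232 for Nudt17. In lymph node it gave -0.51 to 0.24 for Apol7c, -0.66 to 0.31 for Elobl, -0.0534 to 0.44 for Insl6, -0.15 to 0.14 for Nudt17, -0.0699 to 0.0706 for Samsn1 and -0.31 to 0.17 for Tmem150c. For the difference between tissues it gave -0.69 to 0.46 for Apol7c, -0.16 to 0.48 for Insl6, -0.12 to 0.38 for Nudt17, -0.0023 to 0.24 for Serpinb6b, -0.17 to 0.22 for Slco5a1 and -0.0441 to 0.47 for Tmem150c. Muc20 on control arrays, not called, ran from -0.0222 to 0.17. The cause of these changes was not tested.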
